A study of Mus musculus with 6 samples.

Results

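Retinoic acid is a small lipid hormone that cells make from vitamin A, and 9 genes that make, bind, break down or read it are described here: *Aldh1a1*, *Aldh1a2*, *Aldh1a3*, *Crabp1*, *Crabp2*, *Cyp26b1*, *Dhrs3*, *Rarb* and *Rarg*. They were found by their symbols among the 27179 genes of a count table, and all 9 passed the filter on low counts. The set was selected on the log2 fold changes between the CD34hi and CD34lo libraries used here. The members' own differences are therefore given as a description and not as a test. Nothing is read from how many of them differ, or from how large their changes are beside those of other genes.

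The libraries are bulk RNA-seq of fibroblasts sorted from the mammary glands of pubertal mice, 6 weeks of age. The strain is FVB/N in the labels and FVB/NJ in the paper's methods. No allele, transgene or treatment is named for either group. Cells without lineage markers and CD24 but with Pdgfrα were divided by surface CD34 into CD34hi and CD34lo fibroblasts. Each of 3 pools of 2 mice gave 1 library of each population, 6 libraries in all. Libraries with the same number were taken to come from the same mice, and variation between single mice cannot be seen.

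Vitamin A circulates as retinol, enters cells in part through the receptor Stra6, and is oxidized first to retinal and then, irreversibly, to retinoic acid by the enzymes of the Aldh1a family. Dhrs3 turns retinal back into retinol, the Crabp proteins bind retinoic acid in the cytoplasm, and Cyp26 enzymes break it down. In the nucleus, retinoic acid receptors (RARs) pair with retinoid X receptors on DNA and switch target genes on when the ligand is bound, and in developing organs a tissue that makes retinoic acid often signals to a neighbouring tissue that senses it.

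Between 28764779 and 52402410 counts fell on genes per library. *Cd34* itself had 2490, 2639 and 2584 CPM (counts scaled to a common library total, with TMM factors) in the CD34hi libraries and 476, 793 and 632 CPM in the CD34lo libraries, in the order of pools 1, 2 and 3, so that the sort is visible in every pool. All 5 fibroblast markers were detected (*Pdgfra*, *Col1a1*, *Col1a2*, *Dcn* and *Lum*), 4 of them were higher in CD34lo, and together they summed to between 28399 and 35876 CPM in CD34hi and between 48340 and 54231 CPM in CD34lo libraries. A few values rest on very few reads, and 3 counts, the smallest amount treated as detectable, correspond to between 0.0553 and 0.108 CPM per library, a limit that covers counting error only. In bulk samples such as these, fewer cells of a type and less RNA per cell cannot be told apart.

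Over all 15219 genes tested, 35.6% differed between the populations at an adjusted p-value under 0.05 (the quasi-likelihood F-test of edgeR, p-values adjusted by Benjamini and Hochberg's method), with 16.9% higher in CD34hi and 18.7% higher in CD34lo fibroblasts, and 50.1% had CPM values that did not overlap between the groups. Of the 9 members, 3 were past that threshold towards CD34hi (*Aldh1a3*, *Rarb* and *Rarg*) and 4 towards CD34lo (*Aldh1a2*, *Crabp1*, *Cyp26b1* and *Dhrs3*). These counts, here and below, describe a set selected on the same differences and are no test of it. The other 2 members, *Aldh1a1* and *Crabp2*, overlapped between the populations. Log2 fold changes are CD34hi vs CD34lo throughout. The members' median log2 fold change was -0.82, beside -0.01 over all genes, and the median size of the change was 1.19, beside 0.40 over all genes. Because the set was selected on these fold changes, nothing is read from either comparison.

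**Figure D1:**
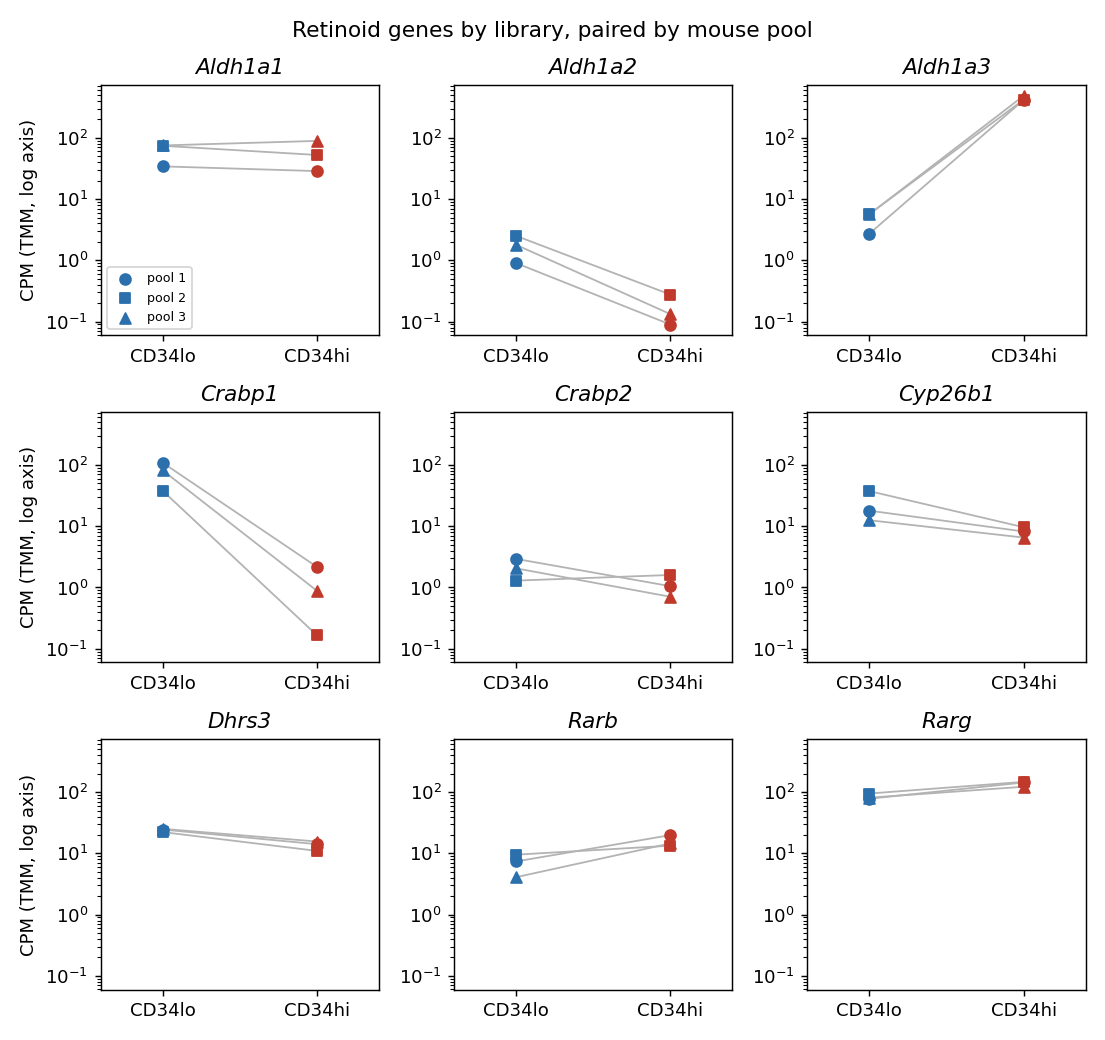
TMM-scaled CPM (log axis, the same range in every panel) of the 9 retinoid genes in the 6 libraries, with CD34lo in blue, CD34hi in red, a symbol for each pool and a line joining the 2 libraries of a pool. Aldh1a3 and Crabp1 cross the panel in opposite directions in all 3 pools, while the points of Aldh1a1 and Crabp2 overlap.

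The enzymes that make retinoic acid differed in kind between the populations. *Aldh1a3* (gene 56847, chr7:66390892-66427477, minus strand, mm10), which oxidizes retinal to retinoic acid, had 416, 420 and 487 CPM in CD34hi and 2.71, 5.65 and 5.63 CPM in CD34lo libraries. The means were 441 ± 39.6 and 4.66 ± 1.69 CPM (SD, n = 3), a ratio of 94.6, and the fitted log2 fold change was 6.59 (SE 0.31). Every CD34hi library lay far above every CD34lo library, and 17 of the 15219 genes tested had a larger fold change towards CD34hi. Because the set was selected on these fold changes, nothing is read from this rank. Within the CD34hi libraries the gene was even, with a coefficient of variation of 8.98% beside a median of 12.9% over all genes tested. Within CD34lo, pool 1 was the low library, so that pool 1 also had the widest gap between the populations, with a log2 ratio of 7.24 against 6.21 in pool 2 and 6.42 in pool 3.

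*Aldh1a1* (gene 11668, chr19:20601982-20643462, plus strand), another enzyme of the same step, was present at similar levels in both. Its CPM values were 28.6, 52.5 and 89.0 in CD34hi and 34.2, 74.1 and 75.1 in CD34lo libraries, with a log2 fold change of -0.11 (SE 0.41). The groups overlapped almost fully, and the spread lay between pools. In both populations pool 1 was the lowest, and CD34hi pool 3 was 3.11 times CD34hi pool 1. The direction of this small difference depended on single libraries, being 0.24 without the CD34hi library of pool 1 and -0.59 without that of pool 3.

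Reads of *Aldh1a1* may be shared with *Aldh1a7*, its closest paralog. The GENCODE transcripts of both genes were 90.3% identical over 2044 aligned bases, and 7.53% of the 50-base windows of the *Aldh1a1* transcript occurred exactly in that of *Aldh1a7*. *Aldh1a7* itself collected 125 counts over the 6 libraries, against 13467 for *Aldh1a1*, and how reads common to both were assigned was not tested. Between *Aldh1a1*, *Aldh1a2* and *Aldh1a3* no such window was shared, at identities between 74.1% and 74.6% over the aligned parts.

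*Aldh1a2* (gene 19378, chr9:71215789-71296243, plus strand), the family member best known for making retinoic acid in the early embryo, was scarce in both populations and higher in CD34lo. It had 0.904, 2.52 and 1.80 CPM in CD34lo and 0.0894, 0.276 and 0.132 CPM in CD34hi libraries. The latter stand on 4, 10 and 6 counts, close to the detectable minimum. All 3 CD34lo libraries were above all 3 CD34hi libraries, and the log2 fold change was -3.39 (SE 0.56).

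Levels of different genes can be compared only per length, for which RPKM (CPM per kilobase of the gene length in the deposited table) was used. The 3 Aldh1a enzymes summed to 158 ± 26.2 RPKM in CD34hi and 32.2 ± 12.3 RPKM in CD34lo fibroblasts (SD, n = 3). *Aldh1a3* made up 89.7%, 82.6% and 76.5% of that sum in the CD34hi libraries and 4.42%, 4.23% and 4.20% in the CD34lo libraries. *Aldh1a1* took 17.0% ± 6.56 of the sum in CD34hi and 93.4% ± 0.422 in CD34lo (SD, n = 3), and *Aldh1a2* 0.0472% and 2.36%. The CD34hi share of *Aldh1a3* was lowest in the pool where *Aldh1a1* was highest, whereas in CD34lo both enzymes were low in pool 1 and higher in pools 2 and 3 and the shares were nearly constant.

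**Figure D2:**
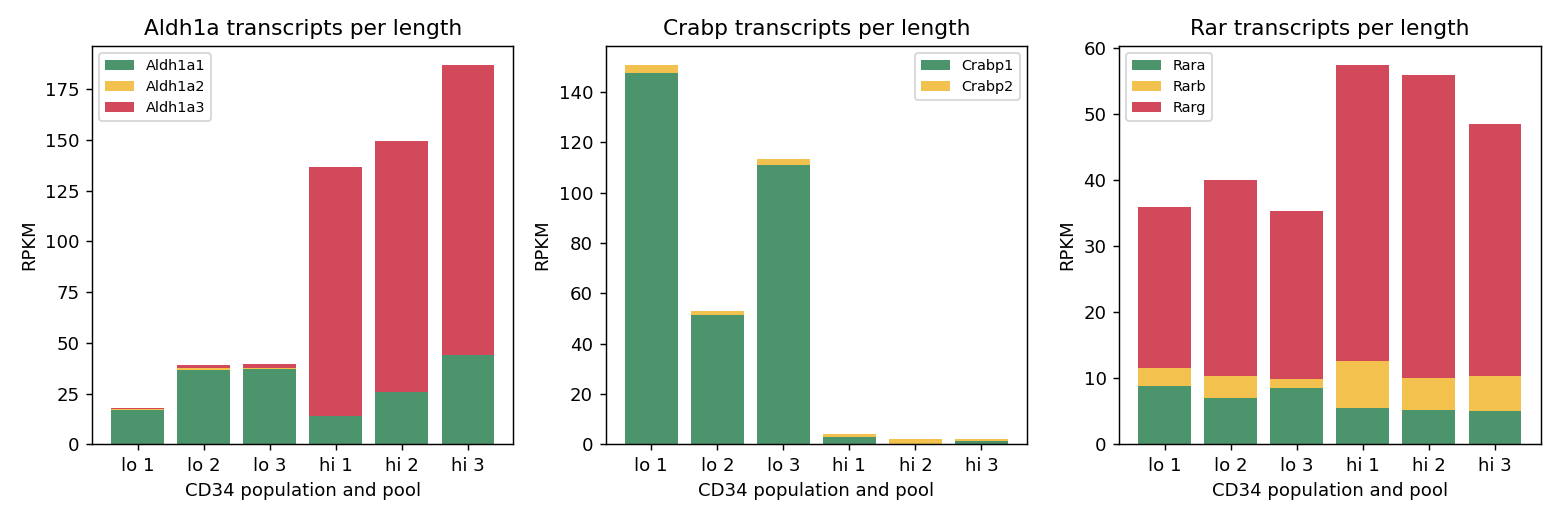
Stacked levels in RPKM (linear axis from 0) of the Aldh1a, Crabp and Rar genes in each library, CD34lo (lo) and CD34hi (hi) by pool. The Aldh1a bars are mostly Aldh1a1 in CD34lo and mostly Aldh1a3 in CD34hi, the Crabp bars nearly vanish in CD34hi, and Rarg makes up most of every Rar bar.

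*Dhrs3* (gene 20148, chr4:144892827-144927645, plus strand), which reduces retinal to retinol and so draws substrate away from retinoic acid synthesis, was moderately higher in CD34lo. It had 24.5, 22.3 and 25.2 CPM in CD34lo and 14.1, 11.0 and 15.6 CPM in CD34hi libraries. The lowest CD34lo library was above the highest CD34hi library, and the log2 fold change was -0.82 (SE 0.15). The CD34lo values were close together, with a coefficient of variation of 6.30%, beside a median of 16.2% over all genes tested.

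Of the binding proteins, *Crabp1* (gene 12903, chr9:54764808-54773109, plus strand), which holds retinoic acid in the cytoplasm, was the member with the largest difference towards CD34lo. It had 109, 38.2 and 82.2 CPM in CD34lo and 2.17, 0.166 and 0.882 CPM in CD34hi libraries. The mean was 71.4 times higher in CD34lo, and the fitted log2 fold change was -6.12 (SE 0.68), with 37 genes further towards CD34lo. Nothing is read from this rank either, as the set was selected on the fold changes. The populations were far apart in each pool, but within CD34hi the values ran over a 13.1-fold range, and the lowest, in pool 2, stands on 6 counts. Pool 2 was also the lowest of the CD34lo libraries. Without the CD34hi library of pool 1 the log2 fold change was -7.09.

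*Crabp2* (gene 12904, chr3:87948693-87953372, plus strand), a binding protein known for carrying retinoic acid to nuclear receptors, was low in both populations. It had 2.93, 1.29 and 2.06 CPM in CD34lo and 1.05, 1.60 and 0.706 CPM in CD34hi libraries. In pools 1 and 3 it was higher in CD34lo, in pool 2 it was higher in CD34hi, and the groups overlapped. The log2 fold change was -0.93 (SE 0.40), and it was -1.51 without pool 2 and -0.53 without pool 1. Per length, the Crabp genes together came to 106 ± 49.3 RPKM in CD34lo and 2.69 ± 1.22 RPKM in CD34hi fibroblasts (SD, n = 3). *Crabp1* was 97.7% ± 0.367 of that level in CD34lo, but 71.5%, 11.2% and 60.3% of it in the CD34hi libraries of pools 1, 2 and 3, where either gene could be the more abundant.

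*Cyp26b1* (gene 232174, chr6:84571414-84593908, minus strand), a cytochrome that oxidizes retinoic acid to inactive forms, was higher in CD34lo. It had 18.0, 37.5 and 12.5 CPM in CD34lo and 8.21, 9.63 and 6.53 CPM in CD34hi libraries. All CD34lo values were above all CD34hi values, although CD34lo pool 2 stood well above the other CD34lo libraries. The log2 fold change was -1.48 (SE 0.37) and -0.92 without that library. The related enzymes *Cyp26a1* and *Cyp26c1* had 7 and 2 counts over the 6 libraries and were not tested.

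Both receptor members were higher in CD34hi. *Rarg* (gene 19411, chr15:102234940-102257483, minus strand), which encodes RARγ, had 144, 147 and 123 CPM in CD34hi and 78.1, 95.0 and 81.2 CPM in CD34lo libraries, with a log2 fold change of 0.70 (SE 0.13). Its coefficients of variation were 9.70% in CD34hi and 10.6% in CD34lo, and no library crossed into the other group's range. *Rarb* (gene 218772, chr14:16430839-16575210, minus strand), which encodes RARβ and is a classical target of retinoic acid itself, had 19.9, 13.4 and 14.6 CPM in CD34hi and 7.38, 9.53 and 4.08 CPM in CD34lo libraries. Its log2 fold change was 1.19 (SE 0.29). The groups did not overlap, and the gap was narrowest in pool 2, with a log2 ratio of 0.48, against 1.42 in pool 1 and 1.82 in pool 3.

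*Rara*, the third receptor of the family and no member of the set, was lower in CD34hi, with 22.6, 21.7 and 21.0 CPM against 36.6, 28.7 and 34.9 CPM in CD34lo. This difference was tested and passed, with a log2 fold change of -0.62 (SE 0.13, edgeR adjusted p = 0.00527), though not without pool 1 (edgeR adjusted p = 0.0632). Per length, the 3 receptors summed to 54.0 ± 4.77 RPKM in CD34hi and 37.0 ± 2.58 RPKM in CD34lo fibroblasts (SD, n = 3). *Rarg* was the main receptor transcript in both, at 79.6% ± 2.14 and 71.2% ± 3.11 of the sum. *Rara* held the second place in CD34lo, with 22.0%, and shared it with *Rarb* in CD34hi, at 9.81% and 10.6%.

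*Rarb* is shown with its promoter because it holds the kind of DNA element that RAR dimers are known to bind, a pair of half-sites repeated in the same orientation (a direct repeat). The search took AGGTCA or AGTTCA, or else GGGTCA or GGTTCA, as either half-site, with 1, 2 or 5 bases between them, on both strands of the RefSeq promoters (GRCm38.p6, 250 bases before to 50 after each annotated start). Promoters were found for 7 of the 9 members, and *Aldh1a3* and *Crabp2* had no entry. A repeat with a spacer of 5 bases occurred in 32 of 32851 promoters (0.0974%), one with 1 base in 73 (0.222%) and one with 2 bases in 88 (0.268%), whereas a single half-site, which every repeat contains, occurred in 43.7%. Among the members, *Rarb* alone had a repeat. Its promoter (chr14:16575427-16575726, minus strand), with the repeat in capitals, lies upstream of the interval that the deposited table gives for the gene:

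Rarb promoter: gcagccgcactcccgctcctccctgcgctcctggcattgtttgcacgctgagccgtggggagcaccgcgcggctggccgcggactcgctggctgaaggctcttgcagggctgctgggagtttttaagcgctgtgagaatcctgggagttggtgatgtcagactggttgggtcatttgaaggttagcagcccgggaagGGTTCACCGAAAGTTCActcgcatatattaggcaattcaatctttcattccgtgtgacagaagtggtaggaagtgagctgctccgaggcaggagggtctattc

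The repeat lay 53 to 37 bases before the start. In the wider lists of retinoid and retinoic acid responsive genes, described after the members, promoters were found for 36 of 45 and for 17 of 26 genes. Among these, *Cyp26a1* had a repeat with the same spacer and *Bco1* one with a spacer of 1 base, both on the strand opposite to the gene, so that they read as the reverse complement of the half-sites. They are shown with a few flanking bases for comparison with *Rarb*, the repeats again in capitals:

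Rarb (chr14:16575506-16575535, minus strand): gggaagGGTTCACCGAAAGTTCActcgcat

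Cyp26a1 (chr19:37697770-37697799, plus strand): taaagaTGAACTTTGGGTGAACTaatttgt

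Bco1 (chr8:117095803-117095828, plus strand): gggaacTGACCTTTGACCTaacacac

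Of these 3 genes, *Rarb* and *Bco1* were higher in CD34hi fibroblasts and *Cyp26a1* was at or near 0 in all libraries. A match in letters is a description of the sequence, and binding was not measured here.

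Ordered by level per length, the members ranked differently in the populations. In CD34hi fibroblasts, *Aldh1a3* came first with 130 ± 11.6 RPKM (475th of 15219 genes by mean RPKM), followed by *Rarg* with 42.9 ± 4.17, *Aldh1a1* with 27.9 ± 15.0, *Dhrs3* with 7.56 ± 1.32, *Rarb* with 5.74 ± 1.25, *Cyp26b1* with 1.67 ± 0.320, *Crabp1* with 1.45 ± 1.37, *Crabp2* with 1.24 ± 0.501 and *Aldh1a2* with 0.0733 ± 0.0432 RPKM (SD, n = 3). The ranges of *Rarg* and *Aldh1a1* overlapped, as did those of *Dhrs3* and *Rarb* and those of *Cyp26b1*, *Crabp1* and *Crabp2*, so that these neighbours are not ordered. In CD34lo fibroblasts, *Crabp1* came first with 103 ± 48.4 RPKM (529th), followed by *Aldh1a1* with 30.1 ± 11.5, *Rarg* with 26.4 ± 2.80, *Dhrs3* with 13.4 ± 0.841, *Cyp26b1* with 4.67 ± 2.70, *Rarb* with 2.52 ± 0.989, *Crabp2* with 2.33 ± 0.911, *Aldh1a3* with 1.37 ± 0.497 and *Aldh1a2* with 0.769 ± 0.357 RPKM. There *Aldh1a1* overlapped *Rarg*, and each of the 5 lowest members overlapped the next. The first place thus went to *Aldh1a3* in CD34hi and to *Crabp1* in CD34lo, and each was among the lower, unordered members in the other population.

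**Figure D3:**
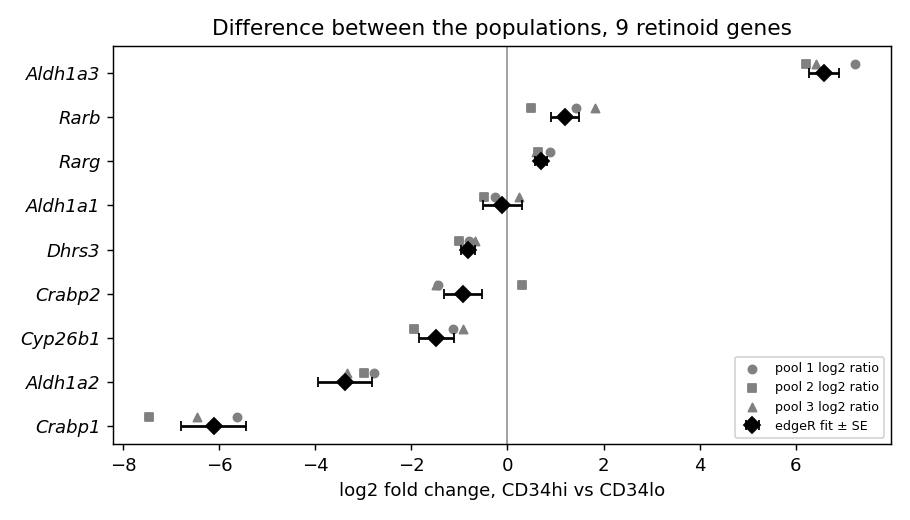
Log2 fold change of CD34hi vs CD34lo for the 9 retinoid genes, with black diamonds and bars for the edgeR estimate and its standard error and grey symbols for the log2 ratio within each pool (log2 CPM with a prior count of 2). All 3 pools fall on the same side of 0 for 7 genes, and for Aldh1a1 and Crabp2 the pools fall on both sides. The genes were selected on these differences, so this count is a description.

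A wider list held 45 other genes of the pathway. Of these, 34 passed the filter on low counts and were tested, 7 were higher in CD34hi, 5 were higher in CD34lo and 22 did not pass. That is 35.3% passing, beside 35.6% of all genes, and their median log2 fold change was -0.05, beside -0.01. The adjusted p-values in the following paragraphs are those of edgeR, adjusted over the whole table.

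In uptake, transport and storage, 2 of 5 tested genes were higher in CD34lo and 1 in CD34hi. *Stra6*, the membrane receptor that brings in retinol, had 135, 33.2 and 113 CPM in CD34lo and 2.01, 0.414 and 1.15 CPM in CD34hi libraries, and fell by 6.27 on the log2 scale in CD34hi (SE 0.66, adjusted p = 0.000139). *Rbp4*, the carrier of retinol in blood, had 24.7 ± 4.73 CPM in CD34lo and 9.69 ± 0.675 CPM in CD34hi (SD, n = 3), a log2 fold change of -1.35 (SE 0.16, adjusted p = 0.000284). *Stra6* and *Rbp4* were thus higher in the same population as *Crabp1*, while *Rbp7*, another retinol-binding protein, had a log2 fold change of 0.06 (SE 0.63) and did not pass. *Rlbp1*, a retinal-binding protein, was higher in CD34hi (log2 fold change 1.49, adjusted p = 0.0295), at 112 counts over all libraries, and did not pass once a single library was left out, for 5 of the 6 libraries.

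Among the enzymes that convert carotenoids, retinol and retinal, 5 of 16 tested genes were higher in CD34hi and 2 in CD34lo. *Dhrs9*, a dehydrogenase that can oxidize retinol to retinal, had 29.8, 45.7 and 46.4 CPM in CD34hi and 0.443, 0.863 and 0.547 CPM in CD34lo libraries, and its log2 fold change of 6.09 (SE 0.29, adjusted p = 2.9e-06) was the largest of the list towards CD34hi. *Bco2* and *Bco1*, which cleave carotenoids, had log2 fold changes of 5.41 (SE 0.49, adjusted p = 5.74e-05) and 4.07 (SE 0.80, adjusted p = 0.00432). The log2 fold change of *Bco1* was 3.31 without the CD34lo library of pool 1 and 5.28 without that of pool 2. *Bco2* had 2.93, 2.65 and 5.18 CPM in CD34hi and 0.0553, 0.144 and 0.0643 CPM in CD34lo libraries, and *Bco1* 3.09, 4.14 and 1.92 CPM against 0, 0.432 and 0.193 CPM. Both were thus close to the detectable minimum in CD34lo. *Dhrs7* (0.66, adjusted p = 0.00306) and *Adh5* (0.54, adjusted p = 0.00484) were slightly higher in CD34hi, and *Adh5* did not pass without pool 1 or without pool 2. *Rdh10*, the main retinol dehydrogenase of the embryo, was slightly lower in CD34hi, with 24.6, 26.4 and 22.7 CPM against 39.5, 30.2 and 32.2 CPM, a log2 fold change of -0.47 (SE 0.14, adjusted p = 0.026). *Rdh12* had a log2 fold change of -1.71 (SE 0.46, adjusted p = 0.0185) at 100 counts in all. The calls of *Rdh10* and *Rdh12* were lost when any of the 3 pools was left out, with adjusted p-values up to 0.226 and 0.11.

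Among the receptors and coregulators, 2 genes passed. With the pool as a block, the coregulator *Nrip1* also passed, towards CD34hi (edgeR adjusted p = 0.0418). In limma-voom with the block, *Nrip1* and another coregulator, *Ncoa1*, were added. Of 6 nuclear receptors and genes of the alternative route to PPARδ, *Rara* alone passed, and the retinoid X receptors *Rxra* (-0.05, SE 0.11) and *Rxrb* (0.16, SE 0.11) had small fold changes that did not pass. Of 6 coregulators, *Ncoa2*, a coactivator of nuclear receptors, was higher in CD34hi, with a log2 fold change of 0.77 (SE 0.13, adjusted p = 0.00195). *Aldh1a7* had a log2 fold change of 0.14 (SE 0.70, adjusted p = 0.899), and its values overlapped, from 0.246 to 0.882 CPM in CD34hi and from 0.184 to 1.08 CPM in CD34lo libraries.

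**Figure D4:**
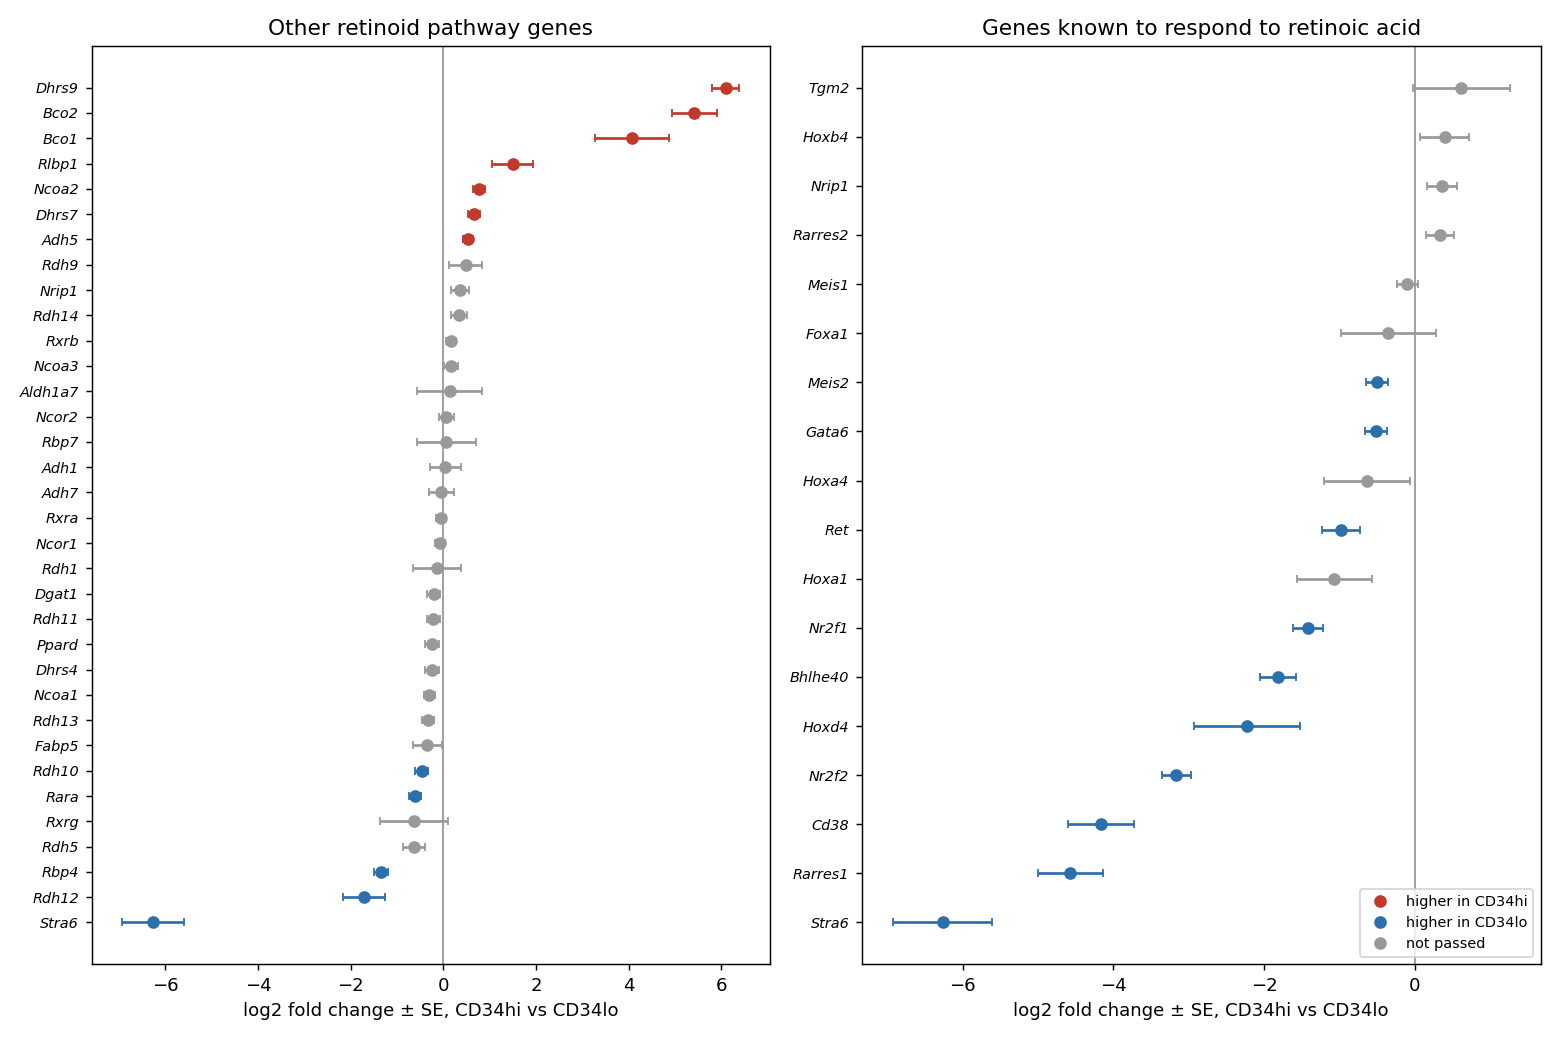
Log2 fold change ± SE (CD34hi vs CD34lo) of the tested genes of the wider pathway list (left, 34 genes) and of the list of genes known to respond to retinoic acid (right, 18 genes), in red where higher in CD34hi, in blue where higher in CD34lo and in grey where the test did not pass. The left panel has coloured points at both ends, and the right panel has them on the CD34lo side.

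A list of 26 genes known from the literature to respond to retinoic acid was also followed, 4 of which are in the wider list too. Of its 18 tested genes, 10 were higher in CD34lo, 0 were higher in CD34hi and 8 did not pass, and the median log2 fold change was -0.81. The share passing was 55.6%, beside 35.6% of all genes, and beside 18.7% in that direction. This list and the wider list were chosen with earlier results of these data known. Their shares are therefore a description and no test of the lists. At an unadjusted p-value under 0.05, 0 genes were higher in CD34hi in edgeR, limma-voom or DESeq2 fitted to all libraries without a block. With the pool as a block in edgeR, 1 gene, *Nrip1*, passed towards CD34hi (adjusted p = 0.0418), and it was named after its value was seen. *Nrip1* also passed towards CD34hi in limma-voom with the block and in edgeR without the CD34lo library of pool 2, and in each of these fits 2 genes of the list had an unadjusted p-value under 0.05 in that direction. The members were left off this list, whether or not they respond to retinoic acid, and they went both ways. *Rarb*, itself a target of retinoic acid, was higher in CD34hi, whereas *Cyp26b1* and *Dhrs3*, for example, were higher in CD34lo.

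After *Stra6*, the largest differences in this list were those of *Rarres1*, *Cd38* and *Nr2f2*. *Rarres1*, named as a retinoic acid receptor responder, had 4.35, 2.27 and 5.47 CPM in CD34lo and 0.179, 0.193 and 0.132 CPM in CD34hi libraries, a log2 fold change of -4.57 (SE 0.43, adjusted p = 7.42e-05). *Cd38*, an ectoenzyme that consumes NAD and that retinoic acid induces in blood cells, had 28.9, 10.6 and 26.4 CPM in CD34lo and 1.70, 1.24 and 0.750 CPM in CD34hi libraries, a log2 fold change of -4.16 (SE 0.44, adjusted p = 0.000135). *Nr2f2*, which encodes the orphan receptor COUP-TFII, had 54.6, 63.7 and 88.3 CPM in CD34lo and 8.32, 7.23 and 7.48 CPM in CD34hi libraries, a log2 fold change of -3.16 (SE 0.19, adjusted p = 8.84e-06). Each of these genes was higher in all 3 CD34lo libraries than in any CD34hi library. The other genes that were higher in CD34lo were *Hoxd4*, *Bhlhe40*, *Nr2f1*, *Ret*, *Gata6* and *Meis2*, with log2 fold changes between -2.23 and -0.50. The first of these values, of *Hoxd4*, was -3.55 without the CD34hi library of pool 3. Of the latter, *Hoxd4*, *Ret*, *Gata6* and *Meis2* each lost the call when some single libraries or pools were left out, with adjusted p-values up to 0.179, 0.1, 0.19 and 0.164, and without the CD34hi library of pool 1 the number passing was 6. Many of these genes answer to other signals as well.

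Genes with a similar pattern were sought for the member with the largest fold change on each side, by the root mean square distance of centred log2 CPM over the 6 libraries, among genes with a mean log2 CPM of at least 3. For *Aldh1a3*, the nearest of 8872 genes were *Fam167a* (distance 0.46), *Lurap1l* (0.57) and *Car8* (0.57). For *Crabp1*, the nearest of 8873 genes were *Stra6* (0.43), *Pla2g7* (0.59) and *Lamc3* (0.59). *Stra6* shared with *Crabp1* both the gap between the populations and the lower values of pool 2 in each of them. *Pla2g7* had 479, 286 and 549 CPM and *Lamc3* 413, 277 and 446 CPM in the CD34lo libraries, with the lowest value again in pool 2. The points share their libraries and most of each profile is the difference between the populations, so that the distances are a description.

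**Figure D5:**
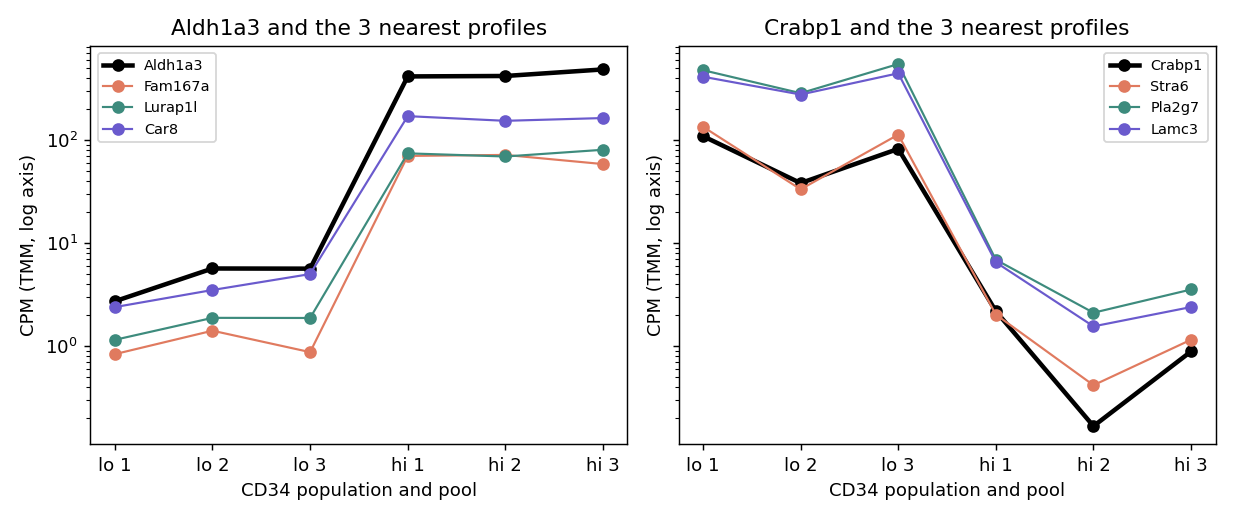
CPM (log axis) in the 6 libraries, CD34lo (lo) and CD34hi (hi) by pool, of Aldh1a3 and Crabp1 (thick black lines) and of the 3 genes with the nearest centred profile to each (thin coloured lines). Stra6 runs almost on top of Crabp1 except in the CD34hi library of pool 2, and the genes near Aldh1a3 lie at least 10-fold higher in each CD34hi library than in each CD34lo library.

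Some transcripts of other cell types moved with the populations, and their part in the members' differences was not tested. *Aldh1a3* is also known from mammary luminal epithelium, whose 5 markers were all tested, none passing. These markers summed to between 28.1 and 36.0 CPM in CD34hi and between 24.7 and 34.9 CPM in CD34lo libraries. Single genes made up much of several of the sums that follow, and they are named with their mean levels in CD34hi and CD34lo. Of the basal epithelial markers, 1 of 5 was higher in CD34hi, *Oxtr* (10.5 and 0.296 CPM), and the list summed to between 10.2 and 19.4 CPM in CD34hi and between 4.06 and 4.94 CPM in CD34lo. Of the keratinocyte markers, 2 of 3 tested were higher in CD34hi, *Krtdap* (8.56 and 0.113 CPM) and *Krt10* (8.77 and 5.18 CPM). The list gave sums of 14.6 to 20.1 CPM in CD34hi and of 3.85 to 7.44 CPM in CD34lo, and *Krt1* and *Krt77* had no counts in any library. Mural cell markers, 4 of 6 higher in CD34lo and 1 in CD34hi, summed to between 137 and 193 CPM in CD34hi and between 157 and 241 CPM in CD34lo. The largest single part of that sum was *Abcc9* (123 and 106 CPM), which did not pass, while *Notch3* (4.44 and 43.1 CPM), *Cspg4* (3.12 and 18.6 CPM) and *Mcam* (1.27 and 6.85 CPM) were higher in CD34lo. Endothelial markers summed to between 46.2 and 88.6 CPM in CD34hi and between 27.6 and 41.1 CPM in CD34lo, with 3 of 5 higher in CD34lo and 1, *Kdr* (53.1 and 6.06 CPM), in CD34hi. Schwann cell markers, likewise 3 of 5 higher in CD34lo and 1, *Mbp* (41.4 and 11.3 CPM), in CD34hi, summed to between 43.5 and 54.1 CPM in CD34hi and between 27.6 and 30.3 CPM in CD34lo. Skeletal muscle markers summed to between 8.91 and 14.8 CPM in CD34hi and between 23.3 and 44.6 CPM in CD34lo. Of the 3 tested, *Myh4* (1.39 and 27.6 CPM) was higher in CD34lo and *Tnnt3* (10.5 and 3.57 CPM) in CD34hi. Markers of lymph node stroma summed to between 39.1 and 176 CPM in CD34hi and between 5.33 and 23.4 CPM in CD34lo, and leukocyte markers to between 17.2 and 20.3 and between 7.36 and 12.3 CPM, with 1 gene of each list passing on each side. The genes higher in CD34hi were *Cxcl13* (88.1 and 9.32 CPM) and *Cd3e* (14.9 and 3.78 CPM). Adipocyte and mesothelial markers summed to under 2 CPM in every library, and 1 of them passed, the adipocyte marker *Plin1*, which was higher in CD34lo.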

How the data were processed

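Bulk RNA-seq libraries (TruSeq RNA v2, polyA RNA, NextSeq) were analysed from 6 samples. The authors mapped reads to GRCm38/mm10 and used Rsubread for counting, and the deposited values are raw whole-number counts per gene. The annotation, the strand setting and the handling of reads that map to several places are not given in the sources used here, and the kit does not mark strand. No member overlapped another gene of the table. Symbols came from a RefSeq gene table (25275 of 27179 identifiers matched).

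Counts were tested in R 4.3.3 with edgeR 4.0.16: filterByExpr by population, TMM normalization, the quasi-likelihood test of CD34hi against CD34lo, and Benjamini-Hochberg adjustment with a threshold of 0.05. The SE of a log2 fold change is its size over the root of F. CPM used TMM-scaled library sizes, RPKM divided CPM by the deposited gene length, and a prior count of 2 went into log2 CPM. The same steps were tested on simulated data. edgeR's common biological variation came to 19.7%, or 14.9% in the blocked fit. P-values measure the spread between 3 pools of mice.

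The labels number the libraries of each population, and equal numbers were taken to mean the same pool of mice, which pairs the libraries. Across genes, the deviations of the libraries of a pool from the means of their populations were weakly correlated (Pearson's r = 0.279, 0.0844 and 0.243 in pools 1, 2 and 3). Libraries of different pools were not compared in this way, so the pairing was not tested. Replicates differed by more than sampling noise (lowest chi-square per degree of freedom, 23.1).

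Results for some genes are not described here. The members and all gene lists were chosen with earlier results of these data known. Named genes are the 9 members, the genes of the wider pathway list that passed, up to 4 genes of largest change among those that passed on each side of the responsive list, *Aldh1a7*, *Rara* and the 3 nearest profiles to 2 members. Other genes of the lists were named after their values were seen. Alternatives were limma-voom (limma 3.58.1), DESeq2 1.42.0, RLE and upper-quartile normalization, 2 other filters on low counts, the pool as a block, a minimum absolute log2 fold change of 1, CPM in place of RPKM, and each library and pool left out. Promoter sequences are from RefSeq (GRCm38.p6) and transcripts from GENCODE, aligned with Biopython 1.88.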

Additional observations from a re-analysis of the deposited data

How the results depend on the processing

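For the 9 members, 144 of 151 log2 fold changes under the alternatives stayed within 1 SD of the pool ratios, the 7 others came from leaving out a library, and no member past the threshold changed sign. Between 6 and 8 members passed when a library or pool was left out. Without pool 1, 2 passed towards CD34hi in place of 3, and without pool 2, 5 passed towards CD34lo in place of 4. With a minimum absolute log2 fold change of 1, 2986 genes passed in place of 5411, and 7 of the wider pathway list in place of 12. Leaving out a library or pool gave between 3468 and 5236 genes in all, between 7 and 13 in the wider list, and between 6 and 10 in the responsive list, the lowest without pool 1 or, in the responsive list, without its CD34hi library. Requiring at least 10 counts in every library drops *Aldh1a2* and *Crabp1*, which have under 10 counts in 2 and in 1 of the CD34hi libraries, and left 5 members past the threshold.

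Of 368 log2 fold changes of 22 tested genes of the lists, 317 changed neither in sign nor in call, and 47 no longer passed, all of them with fewer libraries. Only *Aldh1a7* changed sign, to -0.32 without the CD34hi library of pool 3, -0.30 and -0.04 without the CD34lo libraries of pools 1 and 3, and -0.49 without pool 3, while it reached 1.07 without the CD34lo library of pool 2. In the paired analysis, with the pool as a replicate block, 6161 genes passed in edgeR and 6418 in limma-voom, with 7 members in each, 13 and 15 genes of the wider list, and 11 and 11 of the responsive list. The block ended no call of a member or of the 22 list genes, and the calls of the cell type markers were not followed under it. Upper-quartile scaling moved the median of all genes to -0.06 and no call of a member. By CPM instead of RPKM, *Aldh1a1* and *Aldh1a3* took 90.5% and 6.95% of the Aldh1a level in CD34lo, and 11.0% and 89.0% in CD34hi, since CPM favours long transcripts. Depth limits *Aldh1a2* and *Crabp1* in CD34hi, at 4 to 10 and 6 to 97 counts.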

Other observations

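*Tgm2*, a transglutaminase on the list of retinoic acid responsive genes, did not pass (log2 fold change 0.61, SE 0.64, edgeR adjusted p = 0.499) but had 1 library far from the rest. It had 80.6, 415 and 58.7 CPM in CD34hi and 158, 114 and 90.3 CPM in CD34lo libraries of pools 1, 2 and 3. In pools 1 and 3 it was higher in CD34lo, and in pool 2 it was higher in CD34hi. *Crabp2* likewise reversed in pool 2. Both were pointed out after their values were seen, and whether 1 library is an outlier was not tested.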
